A study of Mus musculus with 30 samples.

Results

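NF-kB is a family of transcription factors that work as pairs of subunits, held inactive in the cytoplasm by inhibitor proteins. In the canonical pathway, which receptors for tumour necrosis factor, interleukin 1 and bacterial products switch on, the inhibitor IkBalpha is degraded and dimers of p50 and RelA enter the nucleus. In the alternative pathway, the kinase NIK accumulates, the p100 precursor is cut to p52, and p52 acts with RelB. In skeletal muscle both pathways are known from studies of inflammation, wasting, regeneration and metabolism.

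The 10 genes described here are the subunits and inhibitors of that family with 3 of its regulators, and they were taken from the count table by their symbols, 10 of 36103 genes. For the canonical side these were Nfkb1 (p105, the precursor of p50), Rela (RelA), Rel (c-Rel), the inhibitors Nfkbia (IkBalpha) and Nfkbie (IkBepsilon), and Tnfaip3 (the ubiquitin-editing enzyme A20, a brake on the pathway). For the alternative side these were Nfkb2 (p100, the precursor of p52), Relb (RelB) and Map3k14 (NIK). Bcl3, an atypical member of the inhibitor family that binds p50 and p52 dimers in the nucleus, was kept apart. All 10 genes passed the filter on low counts in all 4 tissues, so none was left out of a test.

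Bulk RNA of 4 whole tissues was sequenced, namely liver, heart, diaphragm and gastrocnemius (a fast muscle of the calf), from male Mtm1-/y mice and WT littermates, all aged 5 weeks and of a single inbred background. Mtm1-/y mice carry a germline knock-out of Mtm1 on the X chromosome, which encodes the lipid phosphatase myotubularin, in every cell, and they are a model of X-linked myotubular myopathy. The gastrocnemius and the heart had 4 WT and 4 Mtm1-/y libraries, the diaphragm 4 WT and 3 Mtm1-/y, and the liver 3 WT and 4 Mtm1-/y, 30 libraries in all. The methods of the study count these libraries as mice, and the labels name no treatment.

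Library totals ran from 24873817 to 44289343 counts. Mtm1 itself lay between 12.5 and 31.7 CPM (read counts scaled to library size) in the 15 WT libraries and between 3.37 and 6.39 CPM in the 15 Mtm1-/y libraries, so every library matched its label. The tissues carried their own defining markers, with skeletal muscle markers summing to at least 105000 CPM in every gastrocnemius library and hepatocyte markers to at least 124000 CPM in every liver library. Diaphragm libraries were uneven in several sets of cell type markers. Their hepatocyte markers summed to between 463 and 37500 CPM in WT and between 804 and 47400 CPM in Mtm1-/y. T cell markers summed to 3.26 to 71.1 CPM in WT and 4.02 to 5.01 CPM in Mtm1-/y, and B cell markers to 60.5 to 799 CPM and 71.7 to 210 CPM. White adipocyte markers summed to 153 to 778 CPM in WT and 92.5 to 282 CPM in Mtm1-/y. CPM values were scaled by TMM within each tissue, errors are SD between libraries, log2 fold changes are Mtm1-/y over WT with their standard error (SE), and genes with an adjusted p under 0.05 in edgeR's quasi-likelihood test are termed called.

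Several NF-kB genes are themselves known targets of NF-kB, so the sequence before their start sites is shown first. RefSeq promoter windows of 300 bases (250 before the start and 50 from it, build GRCm38.p6) were given for 8 of the 10 genes, and not for Nfkb1 and Relb. The kB consensus, a motif of 10 bases searched on both strands, was found in the windows of 6 of these 8 genes (75%), against 9.55% of 27025 genes with a window and 8.46% of 32851 windows. Windows of Rela and Map3k14 held no match, and the match of Bcl3 lay after the start, from base 3 to base 12. Tnfaip3 had a window with matches that began 125 and 12 bases before the start. Stretches before the start are printed for the alternative subunit gene, for both inhibitors and for c-Rel, in the direction of the gene, with the matches in capitals. They lie at chr19:46304678-46304736 (plus strand) for Nfkb2, chr17:45555574-45555623 (plus strand) for Nfkbie, chr12:55492648-55492696 (minus strand) for Nfkbia and chr11:23771031-23771081 (minus strand) for Rel.
Nfkb2: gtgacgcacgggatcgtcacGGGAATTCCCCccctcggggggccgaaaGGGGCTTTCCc
Nfkbie: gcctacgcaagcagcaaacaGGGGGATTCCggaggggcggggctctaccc
Nfkbia: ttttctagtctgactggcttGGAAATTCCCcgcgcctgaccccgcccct
Rel: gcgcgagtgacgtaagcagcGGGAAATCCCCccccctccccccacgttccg

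In the Nfkb2 stretch the matches began 39 bases and 11 bases before the start. Downstream, 2 more windows of Nfkb2 start sites, which overlap each other, held matches as well. The match at chr19:46305705-46305714 is the same site in both. In the Nfkbie stretch the match began 106 bases before the start, in the Nfkbia stretch 29 and in the Rel stretch 92. As shown next, of the genes with a match, Nfkb2, Nfkbie and Bcl3 rose in the Mtm1-/y gastrocnemius and Nfkbia fell. Rel and Tnfaip3 were not called there by edgeR, and DESeq2 called Tnfaip3 as higher. Rela and Map3k14, without a match, rose as well. The part of the motif in these changes was not tested. A match describes letters only, and binding was not measured in these libraries.

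In WT tissues, Nfkbia had the highest level of the 10 genes per kb of exon, and Rela the next. Nfkbia stood at 31.2 ± 2.81 CPM per kb in the gastrocnemius (n = 4), 39.1 ± 4.33 in the diaphragm (n = 4), 29.3 ± 2.89 in the heart (n = 4) and 41.8 ± 3.1 in the liver (n = 3). Rela stood at 8.12 ± 0.321 CPM per kb in the gastrocnemius, 10.6 ± 1.32 in diaphragm, 10.7 ± 0.651 in heart and 21.9 ± 3.42 in liver. Nfkb2, Relb and Map3k14, the alternative side, were all lowest in the liver. Nfkb2 had 1.68 ± 0.129 CPM per kb in the liver against 2.91 ± 0.0456 in the gastrocnemius, 4.62 ± 0.348 in the heart and 4.82 ± 0.563 in the diaphragm. Relb had 0.416 ± 0.127 in the liver against 1.79 ± 0.115 in diaphragm, 1.98 ± 0.28 in heart and 2.45 ± 0.461 in gastrocnemius. Bcl3 was highest in the liver, with 8.02 ± 3.58 CPM per kb in the liver and 0.27 ± 0.0924 in the gastrocnemius.

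**Figure D1:**
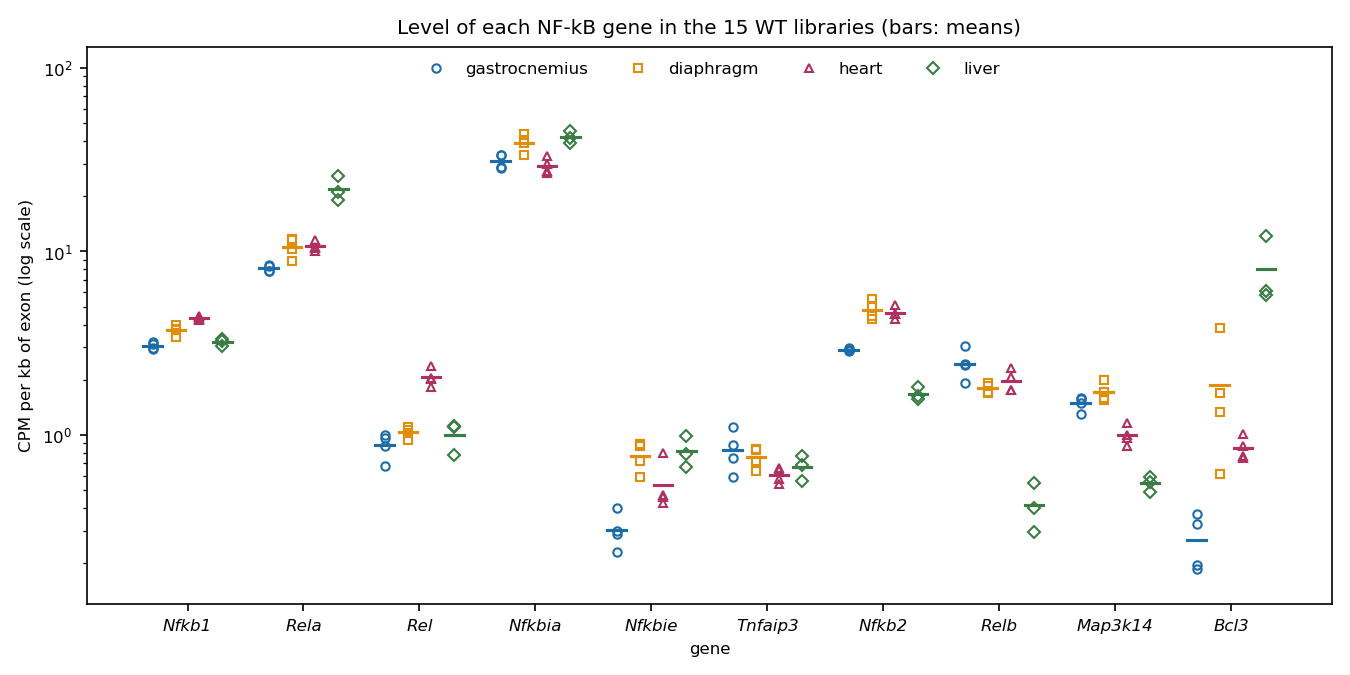
WT levels of the 10 genes in CPM per kb of exon (vertical axis, log scale), with 1 point per library, a bar at the mean and a colour per tissue. Nfkbia lies highest in all 4 tissues, Relb and Map3k14 lie lowest in the liver, and Bcl3 spans from 0.27 CPM per kb in the gastrocnemius to 8.02 in the liver.

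Neighbours in the order of tissues were compared in 1 edgeR fit of the 15 WT libraries, in which tissue contrasts called most genes. The share of all genes called was 54.4% between the diaphragm and the gastrocnemius, 61.3% between the heart and the gastrocnemius, 79.5% between the liver and the gastrocnemius, 51.7% between the heart and the diaphragm, 76.1% between the liver and the diaphragm and 76.4% between the liver and the heart. Of the 10 genes, 7, 8, 7, 5, 6 and 9 were called in these contrasts in the same order, so the family was near the background. The count of 5 between heart and diaphragm was 3 without WT diaphragm replicate 1, WT diaphragm replicate 4 or WT heart replicate 1.

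For Nfkb1 the heart exceeded the diaphragm by 0.23 on the log2 scale (SE 0.06, adjusted p = 0.00818, edgeR) and the diaphragm exceeded the liver by 0.21 (SE 0.07, adjusted p = 0.0129, edgeR). Liver and gastrocnemius, the lowest tissues for Nfkb1, did not differ beyond their spread (0.06, SE 0.07). These rest on few libraries, since the first no longer passed without any 1 of 5 WT libraries (diaphragm replicates 1, 3 and 4, heart replicates 1 and 4, adjusted p from 0.0638 to 0.144) and the second without WT liver replicate 2 (0.0642). Rel, the c-Rel gene best known from lymphoid cells, was higher in the heart than in the diaphragm by 1.00 (SE 0.14, adjusted p = 5.16e-05, edgeR), and below that diaphragm, liver and gastrocnemius did not differ. For Rela the liver exceeded the heart by 1.04 (SE 0.11) and the diaphragm exceeded the gastrocnemius by 0.39 (SE 0.10), while heart and diaphragm did not differ. For Nfkbia the diaphragm exceeded the gastrocnemius by 0.33 (SE 0.10, adjusted p = 0.0138, edgeR), and neither liver and diaphragm nor gastrocnemius and heart differed.

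For Tnfaip3 no pair of neighbours differed, and its means stayed between 0.608 and 0.834 CPM per kb. Between its highest and lowest tissues, heart minus gastrocnemius was -0.45 (SE 0.18, adjusted p = 0.0371, edgeR). For Nfkbie the heart exceeded the gastrocnemius by 0.82 (SE 0.25, adjusted p = 0.0108, edgeR), and the other neighbours did not differ, although diaphragm and heart did without WT heart replicate 4 (adjusted p = 0.00537, edgeR) or WT diaphragm replicate 3 (0.0281). Liver minus heart, which are not neighbours, was 0.59 (SE 0.26, adjusted p = 0.0469, edgeR). For Nfkb2 diaphragm and heart did not differ, the heart exceeded the gastrocnemius by 0.66 (SE 0.09) and the gastrocnemius exceeded the liver by 0.79 (SE 0.10). For Relb the 3 muscles in their order did not differ from their neighbours, and the diaphragm exceeded the liver by 2.12 (SE 0.21, adjusted p = 6.81e-07, edgeR). Diaphragm minus gastrocnemius, which are not neighbours for Relb, was -0.45 (SE 0.17, adjusted p = 0.0389, edgeR). For Map3k14, the NIK gene, diaphragm and gastrocnemius did not differ (adjusted p = 0.0435 without WT heart replicate 4, edgeR), the gastrocnemius exceeded the heart by 0.58 (SE 0.12) and the heart exceeded the liver by 0.87 (SE 0.13). For Bcl3 all 3 neighbouring pairs differed, with 2.10 (SE 0.45) between liver and diaphragm. Its difference of 1.14 (SE 0.43, adjusted p = 0.0413, edgeR) between diaphragm and heart no longer passed without WT gastrocnemius replicate 4, WT diaphragm replicates 1 or 4, or WT heart replicates 1, 2 or 3, and was 0.59 without WT diaphragm replicate 1. WT diaphragm libraries held hepatocyte markers at different levels, and Bcl3 was 11, 3.86, 1.83 and 4.92 CPM in the libraries where these summed to 37500, 24200, 463 and 26900 CPM. In the Mtm1-/y diaphragm the order differed, with Bcl3 at 9.13, 8.06 and 3.28 CPM beside sums of 2860, 47400 and 804 CPM. The source of the hepatocyte transcripts is not known, and their part in the level of Bcl3 was not tested.

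In the Mtm1-/y gastrocnemius all 3 genes of the alternative side rose, together with Bcl3 and one inhibitor gene of the canonical side. Nfkb2, Relb and Map3k14 all rose at least 2.07-fold, Bcl3 rose 4.32-fold and the inhibitor gene Nfkbie rose 5.6-fold, while Nfkb1 and Rel passed no test. Rela rose by a smaller 1.26-fold, and Nfkbia, the main inhibitor gene, fell to 0.761 of its WT level. In all, 7 of the 10 genes were called, 6 higher and 1 lower, in a tissue where 29% of 15456 genes were called, 14.1% higher and 14.9% lower. With a fold over 2 as well, 5 of the 10 genes were called, all higher, against 4.84% of all genes. Libraries of the genotypes did not overlap for the same 7 genes, against 14.7% of all genes not overlapping with Mtm1-/y higher and 16% with Mtm1-/y lower. The median log2 fold change was 0.91 over the 10 genes and 0.02 over all genes tested. In DESeq2, which called 25.7% of genes, Tnfaip3 was called as well, and the count was 8.

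Nfkb2 held 12.2, 11.9, 12.2 and 12.3 CPM in the WT libraries and 64.5, 47.3, 38.9 and 45.3 CPM in the Mtm1-/y libraries. WT libraries were almost alike, and the lowest Mtm1-/y library, at 38.9 CPM, stood far above the highest of them. Means were 12.1 ± 0.172 and 49 ± 10.9 CPM (n = 4 each), and the log2 fold change was 2.01 (SE 0.14, adjusted p = 4.22e-05, edgeR). Relb, whose protein pairs with p52, held 8.52, 10.7, 6.8 and 8.56 CPM in WT and 23.1, 17.5, 15.9 and 15 CPM in Mtm1-/y. All 4 Mtm1-/y libraries were above all 4 WT libraries, and the log2 fold change was 1.05 (SE 0.17, adjusted p = 0.00156, edgeR). Map3k14 held 9.55, 7.75, 9.47 and 8.82 CPM in WT and 22.2, 23.4, 21.5 and 12.5 CPM in Mtm1-/y. One Mtm1-/y library lay much nearer to WT than the other 3, yet the groups did not overlap, and the log2 fold change was 1.16 (SE 0.18, adjusted p = 0.0015, edgeR).

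Nfkbie, an inhibitor gene that WT gastrocnemius hardly expressed, held 0.807, 1.1, 0.839 and 0.634 CPM in WT and 5.27, 4.66, 4.21 and 4.77 CPM in Mtm1-/y. The WT values rest on 20 to 30 counts a library and the Mtm1-/y values on 151 to 220. Its log2 fold change of 2.49 (SE 0.18, adjusted p = 5.96e-05, edgeR) was the largest of the 10. Bcl3 held 0.835, 0.441, 0.419 and 0.729 CPM in WT, from 12 to 30 counts, and 3.64, 2.18, 3.04 and 1.72 CPM in Mtm1-/y, from 64 to 152 counts. Again no library overlapped, and the log2 fold change was 2.11 (SE 0.32, adjusted p = 0.00121, edgeR).

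Of the canonical genes, Nfkb1 held 35.5, 32.8, 34.5 and 32.1 CPM in WT and 34.3, 38.8, 35.1 and 34.9 CPM in Mtm1-/y. Its groups overlapped, and the log2 fold change was 0.09 (SE 0.07, adjusted p = 0.352, edgeR). Rela held 22, 21.8, 23.3 and 23.5 CPM in WT and 32.2, 25.6, 28.5 and 28 CPM in Mtm1-/y. Every Mtm1-/y library was above WT, and the log2 fold change was 0.33 (SE 0.08, adjusted p = 0.0115, edgeR). Rel was lowest of the 3 canonical subunits at 5.99 ± 0.995 CPM in WT against 6.89 ± 1.33 CPM in Mtm1-/y, and its groups overlapped (0.20, SE 0.17, adjusted p = 0.402, edgeR).

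Nfkbia, which NF-kB is known to induce as negative feedback, held 49.6, 41.5, 49.1 and 42.2 CPM in WT and 34.4, 37.1, 39.1 and 28.4 CPM in Mtm1-/y. All Mtm1-/y libraries were below WT, and the log2 fold change was -0.39 (SE 0.11, adjusted p = 0.022, edgeR). This call rested on each of 3 libraries, since the adjusted p was 0.0579 without WT replicate 1, 0.0563 without WT replicate 3 and 0.0527 without Mtm1-/y replicate 1. Tnfaip3 held 4.93, 7.27, 5.84 and 3.87 CPM in WT and 6.59, 11.8, 5.44 and 13.5 CPM in Mtm1-/y. Only 2 of the 4 Mtm1-/y libraries lay above WT, and the log2 fold change of 0.77 (SE 0.30) had an adjusted p of 0.0802 in edgeR, 0.0429 in DESeq2, 0.0309 in edgeR on all 30 libraries and 0.0227 in edgeR without Mtm1-/y replicate 3.

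**Figure D2:**
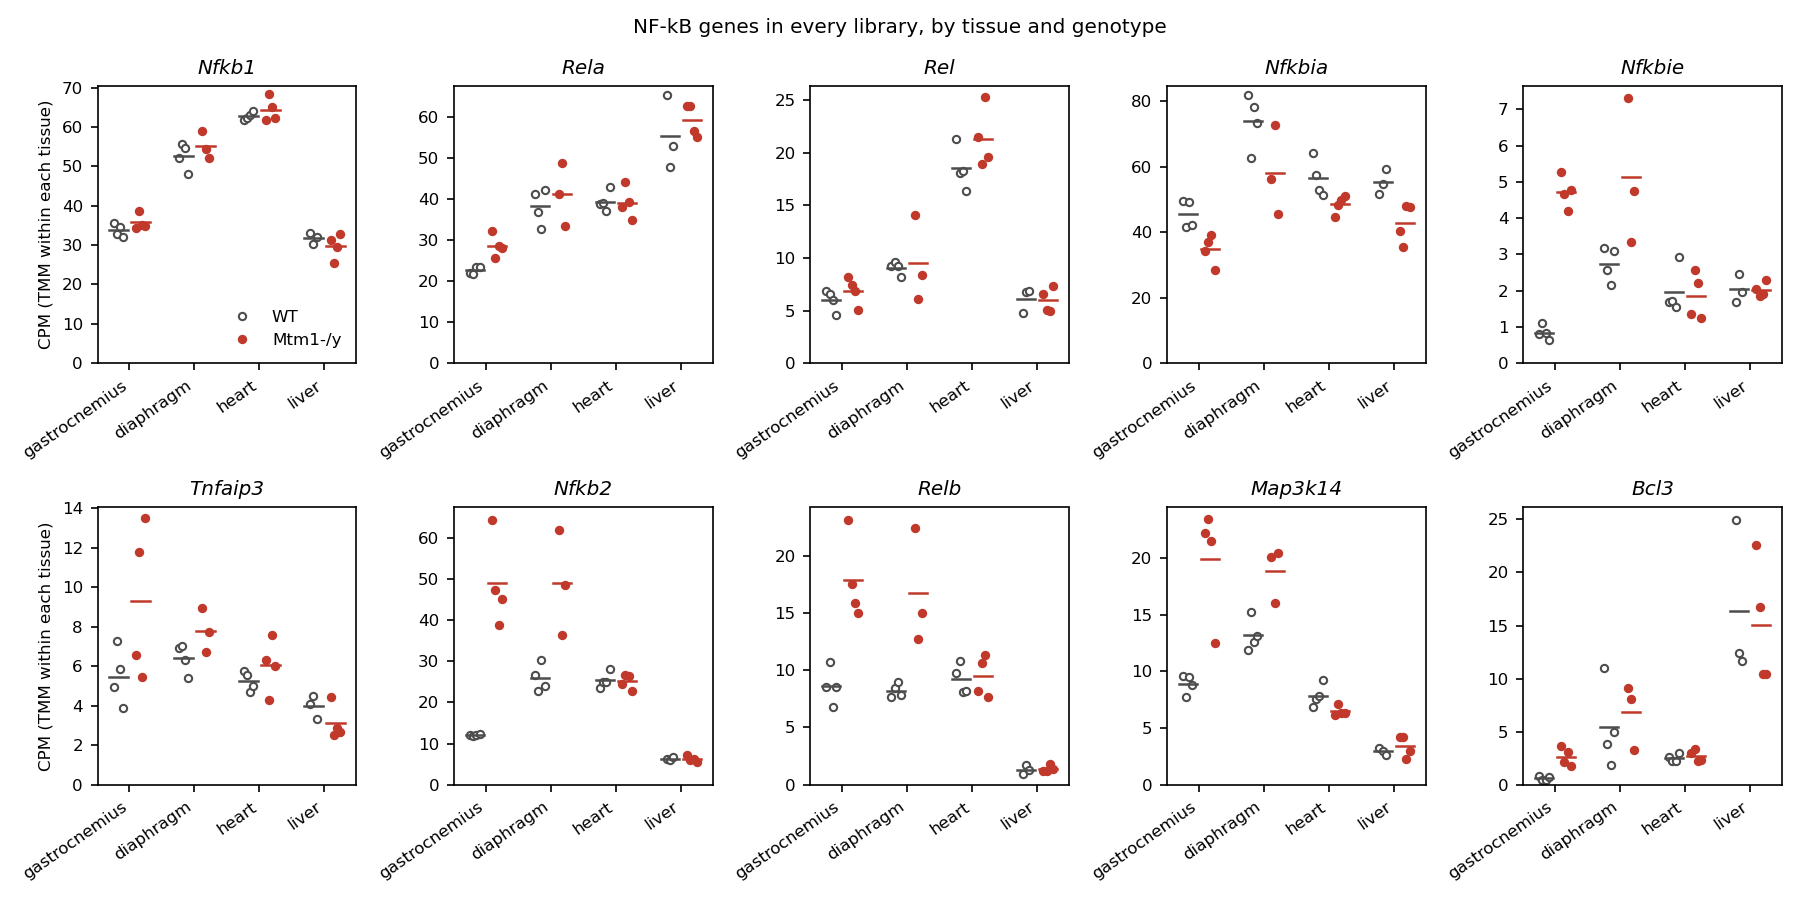
CPM of each gene (vertical axes, from 0) in every library by tissue and genotype, with WT as open points, Mtm1-/y as filled points and bars at the means. In the gastrocnemius Nfkb2 lies between 38.9 and 64.5 CPM in Mtm1-/y and between 11.9 and 12.3 CPM in WT, while Nfkb1 overlaps between the genotypes.

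Cell type markers moved with genotype in the gastrocnemius beside these genes, in a tissue where 14.1% of all genes were called higher and 14.9% lower. Of 10 macrophage markers 9 rose and none fell, and their summed level lay between 49.1 and 85.6 CPM in WT and between 146 and 177 CPM in Mtm1-/y. Among them Mpeg1 had a log2 fold change of 2.63 (SE 0.17), Lyz2 of 1.87 (SE 0.17) and Cd68 of 2.33 (SE 0.29). Fibroblast markers rose in 4 of 6, led by Lum, Col3a1 and Dpt, and white adipocyte markers in 5 of 6, with Retn, Adrb3 and Adipoq having the smallest p. Adrb3 and the macrophage marker Aif1, both in these counts, had only 0.218 ± 0.0906 and 0.277 ± 0.256 CPM in WT. The folds of Adrb3 and Aif1 thus rest on few WT reads. Endothelial markers fell in 3 of 7 (Tie1, Cdh5 and Tek), and skeletal muscle markers fell in 5 of 6 and rose in 1, with summed levels of 168000 to 199000 CPM in WT and 105000 to 114000 CPM in Mtm1-/y. T cell markers summed to at most 1.42 CPM in any library and none was tested, whereas Ighm, the immunoglobulin M heavy chain, fell from 68.6 ± 9.98 to 6.13 CPM on average, and of 6 B cell markers 2 were tested and 1 called. The part of these cell types in the levels of the 10 genes was not tested. In bulk RNA, fewer cells of a type and less RNA per cell cannot be told apart.

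To set the alternative against the canonical side within a library, the log2 ratio of read counts was taken for Nfkb2 to Nfkb1 and for Relb to Rela, which does not depend on how libraries are scaled. In the gastrocnemius, Nfkb2 to Nfkb1 was -1.54, -1.46, -1.50 and -1.38 in WT and 0.91, 0.29, 0.15 and 0.37 in Mtm1-/y. Reads of Nfkb1 thus outnumbered those of Nfkb2 in every WT library, and the reverse held in every Mtm1-/y library. The exon unions of Nfkb1 and Nfkb2 are 12061 and 4584 bases long, so equal reads do not mean equal expression. Per kb of exon, WT gastrocnemius held 3.07 ± 0.125 CPM of Nfkb1 and 2.91 ± 0.0456 CPM of Nfkb2. The mean difference was 1.90, with p = 0.0286 in an exact two-sided permutation test, the smallest p that 4 against 4 allows, and 0.0762 after adjustment over 8 ratios. Relb to Rela was -1.37, -1.02, -1.77 and -1.46 in WT and -0.48, -0.54, -0.84 and -0.90 in Mtm1-/y, again without overlap. Here the difference was 0.71 (exact permutation p = 0.0286, adjusted 0.0762).

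In the diaphragm, Nfkb2 to Nfkb1 was -0.96, -1.28, -0.84 and -1.01 in WT and 0.07, -0.58 and -0.10 in Mtm1-/y. Groups did not overlap, and the difference of 0.82 had the smallest p that 4 against 3 allows (exact permutation p = 0.0286, adjusted 0.0762). Relb to Rela overlapped there, with a difference of 0.89 (exact permutation p = 0.0571, adjusted 0.1143). In the heart the differences were -0.05 for Nfkb2 to Nfkb1 and 0.04 for Relb to Rela, and in the liver 0.07 and -0.01, with overlapping libraries in each case. None of the 8 ratios passed adjustment, and with 8 tests and these group sizes at least 5 of them would have had to reach the smallest p.

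**Figure D3:**
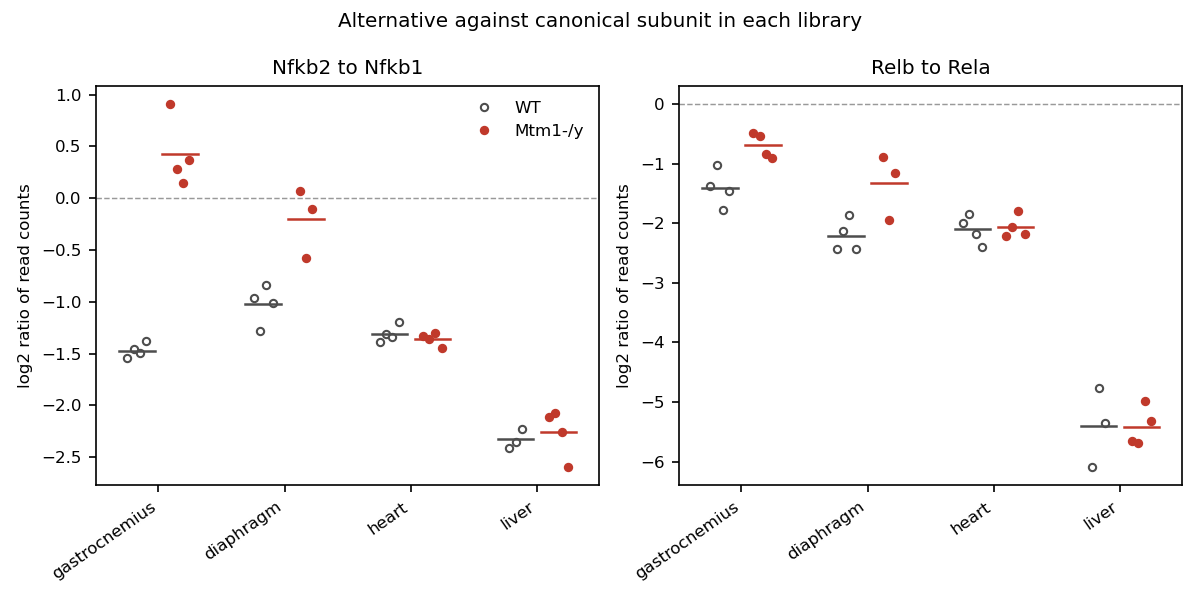
Log2 ratio of read counts of Nfkb2 to Nfkb1 and of Relb to Rela (vertical axes) in every library by tissue and genotype, with bars at the means and a dashed line at equal counts. Nfkb2 to Nfkb1 lies above the line in all 4 Mtm1-/y gastrocnemius libraries, from 0.15 to 0.91, and below it in all WT libraries. Reads were not divided by exon length, so the line does not mark equal expression.

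In the diaphragm, no gene of the family was called by edgeR, in a tissue where 0.0119% of 16796 genes were, and the libraries varied more than elsewhere, with a biological coefficient of variation of 0.394 against 0.171 in the gastrocnemius. At an unadjusted p under 0.05, 4 of the 10 genes were higher in Mtm1-/y, against 6.58% of all genes, and the same 4 did not overlap between genotypes, against 5.4% of all genes. These 4 were Nfkb2, Relb, Map3k14 and Nfkbie. DESeq2, which called 1.7% of genes as higher, called Nfkb2 (adjusted p = 0.00515) and Relb (adjusted p = 0.00242). The median log2 fold change was 0.31 over the 10 genes and -0.01 over all genes tested.

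Relb held 7.62, 8.42, 8.97 and 7.79 CPM in WT diaphragm and 22.4, 12.7 and 15 CPM in Mtm1-/y. Its log2 fold change was 1.02 (SE 0.20, adjusted p = 0.265, edgeR), close to the 1.05 of the gastrocnemius. Nfkb2 held 26.8, 22.9, 30.4 and 23.9 CPM in WT and 62, 36.5 and 48.6 CPM in Mtm1-/y. Every Mtm1-/y library was above WT, and the log2 fold change was 0.92 (SE 0.19, adjusted p = 0.268, edgeR). Map3k14 held 11.9, 15.2, 12.6 and 13.1 CPM in WT and 20.1, 16 and 20.4 CPM in Mtm1-/y (0.51, SE 0.13, adjusted p = 0.293, edgeR). Nfkbie held 3.18, 2.56, 2.15 and 3.1 CPM in WT and 7.31, 3.33 and 4.75 CPM in Mtm1-/y (0.90, SE 0.29, adjusted p = 0.354, edgeR). For all 4 genes the Mtm1-/y library lowest of the 3 was replicate 2, whose hepatocyte markers summed to 47400 CPM. Without that library edgeR called Nfkb2 (1.09, adjusted p = 0.0479) and Relb (1.19, adjusted p = 0.05 after rounding), and it then called 0.729% of all genes as higher. On all 30 libraries it called both as well (adjusted p = 0.00177 and 0.0113), with 1.1% of all genes called as higher.

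Hepatocyte markers were uneven across these libraries, so the values were also computed without the 4 libraries whose hepatocyte markers summed to over 10000 CPM, 3 WT and 1 Mtm1-/y, a choice made after seeing the data. Relb then had a log2 fold change of 1.05, Nfkb2 of 0.86, Map3k14 of 0.68 and Nfkbie of 1.48. All 4 genes were still higher, at adjusted p-values of 0.60 to 0.602 (edgeR), with 1 WT library left that was assumed to vary like the other group. The fold of Bcl3, which is liver-rich, moved most, from 0.33 to 1.76 (adjusted p = 0.645, edgeR).

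Nfkb1, Rela and Rel differed little in the diaphragm, with log2 fold changes of 0.07 (SE 0.10), 0.10 (SE 0.16) and 0.08 (SE 0.27), and Tnfaip3 had 0.28 (SE 0.15). Nfkbia held 82, 62.6, 78.2 and 73.3 CPM in WT and 56.2, 72.7 and 45.7 CPM in Mtm1-/y, so the groups overlapped (-0.35, SE 0.18, adjusted p = 0.56, edgeR). Bcl3 held 9.13, 8.06 and 3.28 CPM in Mtm1-/y and between 1.83 and 11 CPM in WT, and gave no difference beyond that spread (0.33, SE 0.61, adjusted p = 0.932, edgeR). Macrophage markers did not separate the genotypes in the diaphragm, where their summed level lay between 354 and 774 CPM in WT and between 358 and 891 CPM in Mtm1-/y. Fibroblast markers did separate them, with sums of 1870 to 3840 CPM in WT and 4080 to 8050 CPM in Mtm1-/y. Of the 6 fibroblast markers none was called by edgeR and 3 were higher in DESeq2, beside 1.7% of all genes. At an unadjusted p under 0.05, the standard met by the 4 genes of the family, 4 fibroblast markers were higher, beside 6.58% of all genes. Their log2 fold changes were 1.48 (SE 0.37) for Lum, 1.34 (SE 0.38) for Col1a1, 1.31 (SE 0.38) for Col3a1 and 0.57 (SE 0.23) for Dpt. The part of these markers, and of the uneven T cell, B cell and adipocyte markers, in the values of Relb, Nfkb2, Map3k14 and Nfkbie was not tested.

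In the heart, no gene of the family was called by edgeR, against 0.00656% of 15238 genes, and none by DESeq2, against 0.453%. Nfkb2 held 23.6, 25, 24.9 and 28.1 CPM in WT and 24.5, 26.7, 26.4 and 22.9 CPM in Mtm1-/y, and the log2 fold change was -0.02 (SE 0.08). Relb at 9.2 ± 1.31 and 9.45 ± 1.77 CPM, Nfkbie at 1.96 ± 0.639 and 1.85 ± 0.645 CPM and Bcl3 at 2.52 ± 0.366 and 2.74 ± 0.559 CPM (n = 4 each, WT then Mtm1-/y) overlapped between the genotypes as well. Map3k14 was lower in Mtm1-/y hearts at an unadjusted p of 0.0443, with 7.87 ± 0.99 CPM in WT against 6.47 ± 0.468 CPM in Mtm1-/y and an adjusted p of 0.546 in edgeR. With Nfkbia it made 2 of the 10 genes lower at an unadjusted p under 0.05, against 5.83% of all genes. White adipocyte markers were lower in the same hearts, with sums of 21.8 to 79.3 CPM in WT and 3.63 to 8.47 CPM in Mtm1-/y. Of the 5 tested none was called by edgeR and 5 by DESeq2, with Plin1 at -3.08 (SE 0.50) and Adipoq at -2.48 (SE 0.43). Fibroblast markers had a median log2 fold change of -0.42, none called, with sums of 1740 to 4050 CPM in WT and 1830 to 2160 CPM in Mtm1-/y. The heart markers Nppa and Myl7 varied widely between WT hearts (6020 ± 8760 and 1640 ± 2250 CPM). The part of all these markers in the levels of Map3k14 and Nfkbia was not tested. Nfkb1 (0.04, SE 0.06), Rela (-0.01, SE 0.08), Rel (0.21, SE 0.12) and Tnfaip3 (0.20, SE 0.17) passed no test.

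In the liver, edgeR called 0 of the 10 genes and 0% of 14305 genes, and DESeq2 called none of the 10 and 0.163% of all genes. At an unadjusted p under 0.05 the liver had 1 gene of the family, Nfkbia, against 2.54% of all genes lower. Nfkb2 held 6.22, 5.91 and 6.85 CPM in WT and 7.19, 6.03, 6.19 and 5.45 CPM in Mtm1-/y, and Relb between 0.951 and 1.74 CPM in WT and between 1.19 and 1.78 CPM in Mtm1-/y, from 33 to 56 counts in any library. Bcl3, the liver-rich member, held 24.9, 12.4 and 11.7 CPM in WT and 22.6, 16.7, 10.4 and 10.4 CPM in Mtm1-/y. None of these differed beyond the spread between libraries, and the log2 fold changes of Nfkb1, Rela, Rel, Nfkbie, Tnfaip3 and Map3k14 lay between -0.35 and 0.21. Macrophage markers summed to between 194 and 219 CPM in WT livers and between 49.4 and 209 CPM in Mtm1-/y livers, and their part in these levels was not tested.

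Nfkbia was the 1 gene of the family with a lower mean in Mtm1-/y in all 4 tissues. The share of all genes with a lower mean in all 4 was not computed, so this is a description only. In the heart it held 64.1, 57.6, 52.8 and 51.5 CPM in WT and 44.7, 48.4, 50 and 51.2 CPM in Mtm1-/y. Those groups did not overlap, as for 2.16% of all genes lower in that tissue, yet the nearest libraries were 51.5 and 51.2 CPM. In the liver Nfkbia held 51.8, 54.7 and 59.3 CPM in WT and 40.5, 35.5, 48 and 47.8 CPM in Mtm1-/y, also without overlap, as for 3.47% of all genes lower. Log2 fold changes were -0.22 (SE 0.08, adjusted p = 0.546, edgeR) in the heart and -0.36 (SE 0.13, adjusted p = 0.969, edgeR) in the liver, beside -0.39 in the gastrocnemius and -0.35 in the diaphragm. Only the gastrocnemius value passed adjustment, and none of the differences from it did (0.03, SE 0.20, in the diaphragm, 0.19, SE 0.14, in the heart and 0.06, SE 0.17, in the liver).

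**Figure D4:**
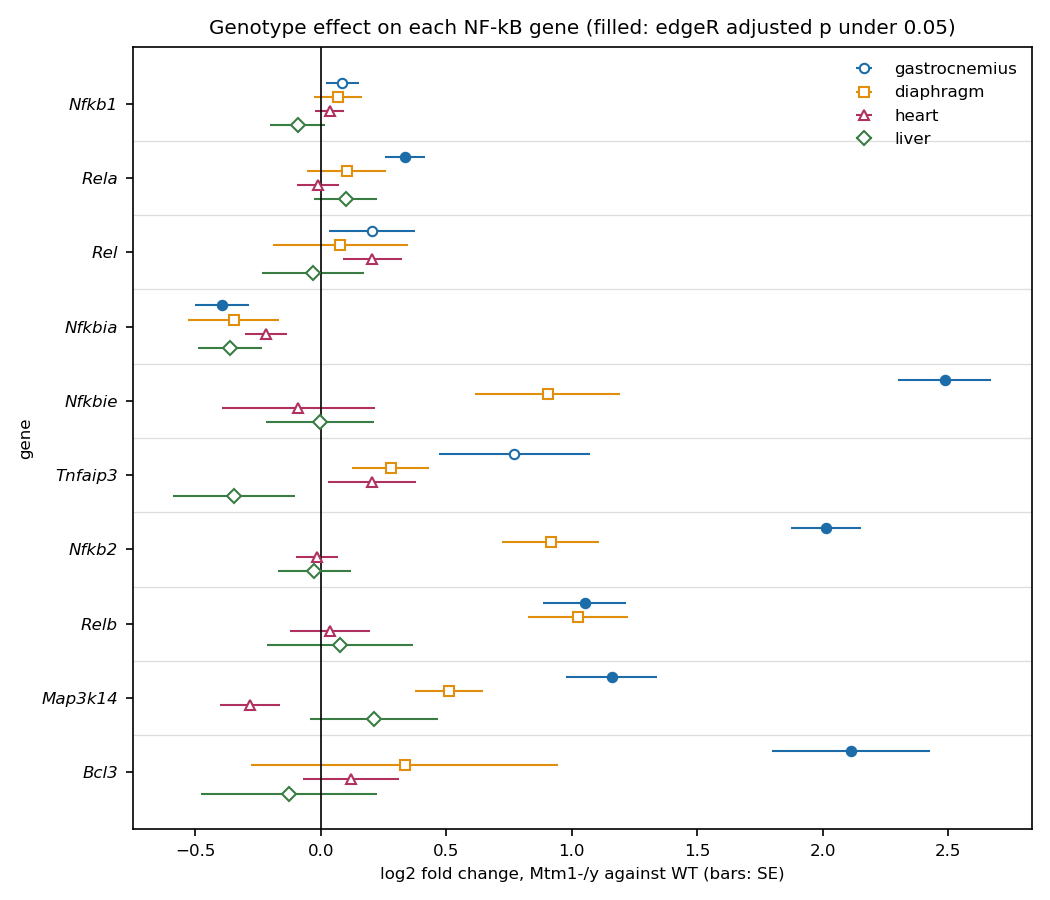
Log2 fold change of Mtm1-/y against WT (horizontal axis) for each gene, with a symbol per tissue, SE bars, and filled symbols where edgeR's adjusted p was under 0.05. All filled symbols belong to the gastrocnemius, Nfkbia lies below 0 in all 4 tissues, and Relb lies at 1.05 in the gastrocnemius and 1.02 in the diaphragm.

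Whether the genotype effect differed between tissues was tested as a contrast against the gastrocnemius, and the 3 contrasts share its 8 libraries. Whether libraries of different tissues came from the same mice is not given in the labels, and the contrasts treat them as separate. Against the heart, 5 of the 10 genes differed, all with the smaller value in the heart, where 9.89% of all genes did so. These were Nfkb2 with a difference of -2.01 (SE 0.17, adjusted p = 6.98e-06, edgeR), Nfkbie with -2.56 (SE 0.37), Bcl3 with -1.98 (SE 0.38), Map3k14 with -1.43 (SE 0.23) and Relb with -0.996 (SE 0.24, adjusted p = 0.0115, edgeR). Against the liver, 3 genes differed in the same direction, where 2.71% of all genes did. Nfkb2 had a difference of -2.01 (SE 0.20, adjusted p = 0.000199, edgeR), Nfkbie of -2.46 (SE 0.27) and Bcl3 of -2.21 (SE 0.52, adjusted p = 0.0217, edgeR). The Bcl3 difference no longer passed when WT gastrocnemius replicate 2 (adjusted p = 0.0533), WT gastrocnemius replicate 3 (0.0509), Mtm1-/y gastrocnemius replicate 1 (0.0503) or WT liver replicate 1 (0.0558) was left out. Relb (-0.94, SE 0.31, adjusted p = 0.0847, edgeR) and Map3k14 (-0.92, SE 0.32, adjusted p = 0.0976, edgeR) did not pass against the liver. Without Mtm1-/y gastrocnemius replicate 4, Map3k14 passed there (-1.09, adjusted p = 0.0293, edgeR).

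Between the 2 skeletal muscles, none of the 10 genes differed in edgeR, where 0.28% of all genes did. Nfkbie (-1.59, SE 0.35, adjusted p = 0.0889, edgeR) and Nfkb2 (-1.11, SE 0.25, adjusted p = 0.0979, edgeR) had smaller values in the diaphragm, and both passed in DESeq2 (adjusted p = 0.00625 and 0.01). Nfkbie also passed in edgeR without Mtm1-/y diaphragm replicate 1 (-1.94, adjusted p = 0.0376). For Relb the difference was -0.03 with an SE of 0.28, and for Bcl3 it was -1.79 with an SE of 0.72 (adjusted p = 0.336, edgeR). Without the 4 hepatocyte-rich diaphragm libraries the difference was -0.34 for Bcl3 (adjusted p = 0.962, edgeR), -0.99 for Nfkbie (0.622) and -1.14 for Nfkb2 (0.422). Rela, whose difference from the heart was -0.33 (SE 0.11, adjusted p = 0.0556, edgeR), passed without Mtm1-/y gastrocnemius replicate 2 (0.0322) or Mtm1-/y heart replicate 2 (0.0204).

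Upstream of the subunits, receptor genes rose in the gastrocnemius. Of 12 listed receptors 11 were tested, 7 rose and none fell, in a tissue where 14.1% of all genes were called higher and 14.9% lower. Their median log2 fold change was 0.61, against 0.02 over all genes tested. This list and those below were chosen with earlier results of these data known. Eda2r, the receptor of ectodysplasin A2, went from 11.5 ± 1.66 to 127 CPM (3.47, SE 0.19, adjusted p = 2.48e-05, edgeR). Tlr4, the receptor for bacterial lipopolysaccharide, went from 4.32 ± 0.456 to 11.1 CPM (1.36, SE 0.17), and Tnfrsf1a, the main receptor for tumour necrosis factor, from 26.9 ± 0.717 to 43 CPM (0.68, SE 0.10). Ligands were mostly below the filter, with 2 of 10 tested and none called by edgeR. DESeq2, which called 25.7% of all genes in either direction, called 1 ligand as higher. Tnfsf12, the TWEAK ligand, had 4.43 ± 0.739 CPM in WT against 4.53 CPM in Mtm1-/y.

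Of 21 kinases and adaptors, all tested in the gastrocnemius, 8 rose and 1 fell (median 0.28), beside 14.1% and 14.9% of all genes. Traf3, the adaptor that holds NIK at a low level, rose from 30 ± 1.26 to 44.8 CPM (0.58, SE 0.08), and Birc3, a ubiquitin ligase of the same complex and a known NF-kB target, from 4.99 ± 0.85 to 10.9 CPM (1.12, SE 0.17). Tab2, an adaptor of the kinase TAK1 in the canonical pathway, was the one that fell, from 156 ± 18.4 to 88.9 CPM (-0.81, SE 0.10). Of 12 other inhibitors 11 were tested, 5 rose and 1 fell (median 0.49), beside the same shares of all genes. The risen ones with the smallest p were Otulin, which removes linear ubiquitin chains (1.06, SE 0.14), and the A20-binding proteins Tnip1 (0.37, SE 0.07) and Tnip2 (0.54, SE 0.11).

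Downstream, 15 of 20 listed canonical targets were tested in the gastrocnemius, and 6 rose and 2 fell (median 0.35), beside 14.1% and 14.9% of all genes. The 2 that fell were Sod2, from 244 ± 16.7 to 160 CPM (-0.61, SE 0.09), and Bcl2l1, from 35.3 ± 4.34 to 23.9 CPM (-0.56, SE 0.15). The list summed to 418 to 511 CPM in WT and 350 to 410 CPM in Mtm1-/y. The chemokine genes Cxcl10 and Ccl2 had log2 fold changes of 6.03 (SE 0.48) and 4.15 (SE 0.53), from 0.0455 ± 0.0255 and 0.193 ± 0.0538 CPM in WT to 3.28 and 3.51 CPM. Both were barely detected in WT and passed the filter on low counts only through the Mtm1-/y libraries. Ptgs2, also among the 6, was low in WT as well, at 0.271 ± 0.155 CPM against 1.5 CPM in Mtm1-/y. The folds of these genes thus rest on few WT reads, and the count of 6 and the median include them. The adhesion molecule gene Icam1 went from 3.43 ± 0.443 to 6.5 CPM (0.92, SE 0.13). Of 8 listed alternative targets 4 were tested and none was called, and Cxcl12, the most abundant, had 132 ± 9.94 CPM in WT against 114 CPM in Mtm1-/y (-0.21, SE 0.11, adjusted p = 0.172, edgeR). In the diaphragm, heart and liver edgeR called no member of any of these 6 pathway lists. In the diaphragm DESeq2 called 2 other inhibitors, 2 receptors and 1 canonical target, all higher, beside 1.7% of all genes called higher.

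Correlations between the genes within groups ran in both directions. After each group's mean was taken out, the highest Pearson correlation of log2 CPM between members over the 30 libraries was 0.741, for Rela with Bcl3, and Relb correlated with Rel at 0.568, with Nfkbie at 0.512 and with Nfkb2 at 0.453. The lowest was -0.308, for Rela with Rel, and Relb had -0.232 with Rela and -0.101 with Map3k14, the other alternative gene beside Nfkb2. Over 12600 other genes tested in all tissues, those most like Nfkb1 were Rgl1 (0.779), Sema6a (0.775) and Klhl6 (0.761), and those most like Nfkb2 were Mettl21a (0.777), Tubb6 (0.73) and Adprh (0.72). These points share libraries, depth and, in the diaphragm, uneven hepatocyte markers, and are given as a description.

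Some of these genes overlap others in the annotation. Nfkb2 (chr 19) overlaps Psd and a long non-coding gene on the opposite strand, Bcl3 (chr 7) overlaps 2 antisense genes, and Nfkb1 (chr 3) and Map3k14 (chr 11) each overlap 1 non-coding gene on their own strand. The libraries were made with a stranded kit, but the strand setting of the counting is not given in the sources used here, so it is not known whether reads from the opposite strand were kept out of the counts of Nfkb2 and Bcl3. Reads that fell in both genes of a pair on the same strand were dropped as ambiguous.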

How the data were processed

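RNA libraries of whole tissue had been made with a stranded mRNA kit and sequenced as single reads. The authors used cutadapt 1.10 to trim reads, STAR 2.5.3a to align them to mm10 and HTSeq 0.6.1p1 to count unique, unambiguous reads per Ensembl gene (versions as in the submitters' processing notes), and they deposited raw read counts for 36103 genes in 30 libraries. Genes were matched to symbols by Ensembl ID (36103 of 36103). Libraries were grouped by the tissue and genotype in their labels. The methods of the study count samples as mice.

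The later steps used R 4.3.3. Each tissue was fitted alone in edgeR 4.0.16, after filterByExpr (count minimum 10) and TMM scaling, with its two-sided quasi-likelihood test and p-values adjusted by Benjamini-Hochberg over all genes tested (threshold 0.05). SE is the log2 fold change divided by the root of F. Differences between tissues were contrasts in 1 fit of both, and WT tissues were compared in 1 fit of 15 libraries. Per-kb levels used the exon union of GENCODE M21. Ratios added 0.5 counts and were compared by exact permutation. Alternatives were DESeq2 1.42.0, its size factors, no filter, a fit of all 30 libraries, limma 3.58.1 voom with sample weights, a fold over 2, a block for the replicate number, fits without liver-enriched genes or without each library in turn, an offset of 1 count and, added after seeing the data, a fit without the hepatocyte-rich diaphragm libraries. The fits were tested on simulated counts. Counts per library of 24873817 to 44289343 set the precision, and p-values weigh a difference between groups against the spread between libraries. No 2 replicates agreed within counting noise (lowest chi-square per degree of freedom 11.3).

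The 10 genes, the pathway lists and the marker lists were chosen with earlier results of these data known. All 10 genes are described in all tissues, and of each other list and tissue up to 3 called genes with the smallest p are named, or else the 1 most abundant. Named beyond this rule are Sod2, Bcl2l1, Ptgs2 and Aif1 in the gastrocnemius, and some fibroblast, adipocyte and heart markers in the diaphragm and heart. For Nfkb1 and Nfkb2 the 3 genes with the highest within-group correlation are named. Promoters come from RefSeq (GRCm38.p6), matched by symbol.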

Additional observations from a re-analysis of the deposited data

Results flagged for a closer look

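In 1 of the 60 groups of 4 libraries looked at, the highest library stood apart from the others. This was Nfkbie in the WT heart, with 2.92 CPM in replicate 4 against 1.54 to 1.71 CPM in the other 3. Chance alone sets apart about 1 group in 20. WT heart replicate 4 was also the farthest from its group in the comparison of replicates with counting noise. Its chi-square per degree of freedom was 146, 239 and 161 against replicates 1, 2 and 3, which had 17.2 to 34.3 among themselves. The part of this in the Nfkbie value was not tested.

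The genotype effect differed between the heart and the gastrocnemius, by a test of the difference itself, for 5 genes. The differences of log2 fold changes, heart minus gastrocnemius, were -2.56 for Nfkbie, -2.01 for Nfkb2, -0.996 for Relb, -1.43 for Map3k14 and -1.98 for Bcl3. Between the liver and the gastrocnemius they were -2.46 for Nfkbie, -2.01 for Nfkb2 and -2.21 for Bcl3. In all 8 the gene was called higher in the gastrocnemius and was not called in the heart or liver. The contrasts share the gastrocnemius libraries, in which macrophage marker sums went from 49.1 to 85.6 CPM in WT to 146 to 177 CPM in Mtm1-/y, while in the heart they lay between 347 and 490 CPM in WT and between 361 and 420 CPM in Mtm1-/y. The part of these markers in the differences was not tested.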

How the results depend on the processing

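In the gastrocnemius the count of 7 genes called stayed between 5 and 8 under every setting tried. It was 6 without liver-enriched genes, a set that holds Bcl3 itself, and 5 with a fold over 2. In the diaphragm the count of 0 became 2 (Nfkb2 and Relb) in DESeq2 and in edgeR on all 30 libraries, and ranged from 0 to 2 when 1 library was left out, with 2 only without Mtm1-/y replicate 2. The difference between diaphragm and gastrocnemius went from 0 genes to 2 in DESeq2, and ranged from 0 to 1 when 1 library was left out. The WT count between heart and diaphragm ranged from 3 to 5. Heart and liver counts were 0 in each setting. Over all genes, the 2 called in the diaphragm became 438 in DESeq2, 274 on all 30 libraries, 9 in limma voom, 4 without liver-enriched genes and 0 with the replicate block or without the hepatocyte-rich libraries. They became 162 without Mtm1-/y replicate 2. The 1 of the heart became 85 in DESeq2, 5 on all 30 libraries, 19 without WT heart replicate 1, 12 without WT heart replicate 2 and 2 without WT heart replicate 3, the 0 of the liver 25, 14 and, without a filter, 8 (8 also without Mtm1-/y liver replicate 1 and 2 without WT liver replicate 1), and the 4479 of the gastrocnemius 2925 on all 30 libraries and 1024 with a fold over 2. Why these counts moved was not tested.

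Replicate numbers were not taken as pairing, since no set of same-numbered libraries had all its correlations over 0.1 (-0.038 to 0.104 between genotypes of the gastrocnemius, 0.015 to 0.292 between WT diaphragm and heart). The labels do not say whether a number marks 1 mouse across tissues, so shared mice were not settled. With the replicate number as a block, 7, 0, 0 and 0 genes were called in gastrocnemius, diaphragm, heart and liver, and no other call on the 10 genes by genotype changed.

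Directions turned only where the value was near 0 and not called. Other settings gave 0.0116 (Nfkb2) and -0.0382 (Relb) in the heart in limma voom. In the liver Nfkbie gave 5e-04 with DESeq2's size factors, 0.001 without a filter, 0.0091 in DESeq2 and 0.0053 on all 30 libraries, and the block gave 0.0327 (Nfkb2) and 0.0392 (Bcl3). The difference of diaphragm and gastrocnemius was 0.0036 for Relb in DESeq2, and -0.2188 (Nfkbia) and 0.0135 (Relb) without the hepatocyte-rich diaphragm libraries, chosen after seeing the data. For Rel, WT liver minus diaphragm gave 0.0159 with DESeq2's size factors and 0.0048 in DESeq2.

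Leaving out 1 library, log2 fold changes in the diaphragm ranged from -0.038 to 0.2406 (Rela) and -0.3197 to 0.3105 (Rel). In the heart they ranged from -0.0694 to 0.042 (Rela), -0.2855 to 0.1671 (Nfkbie), -0.049 to 0.0395 (Nfkb2) and -0.0599 to 0.1263 (Relb). In the liver they ranged from -0.1817 to 0.0578 (Rel), -0.1213 to 0.154 (Nfkbie), -0.1038 to 0.0423 (Nfkb2), -0.1192 to 0.3272 (Relb) and -0.3935 to 0.3151 (Bcl3). Differences from the gastrocnemius ranged from -0.1476 to 0.1802 (Nfkbia, diaphragm), -0.3137 to 0.1364 (Relb, diaphragm) and -0.0275 to 0.1397 (Nfkbia, liver). WT differences ranged from -0.2714 to 0.0267 (Tnfaip3, diaphragm minus gastrocnemius), -0.1348 to 0.0399 (Rela, heart minus diaphragm), -0.1444 to 0.1089 (Rel, liver minus diaphragm) and -0.083 to 0.2087 (Nfkbie, liver minus diaphragm). The log2 ratio of Relb to Rela gave differences of -0.0532 to 0.1292 in the heart and -0.3559 to 0.304 in the liver.

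For Nfkb1 in WT, the difference between heart and diaphragm did not pass without a filter on low counts (adjusted p = 0.0633), nor that between liver and diaphragm with DESeq2's size factors (0.0805) or in DESeq2 (0.057). Depth limits Nfkbie and Bcl3 in WT gastrocnemius, at 12 to 30 counts, and Relb in the liver, at 33 to 56 counts.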
